A study of Mus musculus with 2 samples.

Results

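The variable genes of the immunoglobulin heavy chain were taken as all genes whose symbol starts with Ighv, which gave 175 members of the 43346 genes in the deposited tables. The annotation holds 185 such genes, and the other 10 were not analysed here. RNA was from spleen of adult C57BL/6J mice, an inbred laboratory strain, at 8 weeks of age, and was sequenced as 2 libraries, which the labels number as biological replicates 1 and 2 and which are called library 1 and library 2 here. The libraries form a single group with no treatment or genotype contrast, and the labels attribute the tissue to littermates of mixed sex without saying which animals entered which library, so the spread between them may be technical. Poly(A) RNA was read in pairs of 76 nucleotides, and gene totals came to 49686344 expected counts in library 1 and 51393345 in library 2. The members lie on chromosome 12 between positions 113572927 and 116000461 (mm10, the same assembly as GRCm38). They comprise 113 annotated V genes, 60 V pseudogenes and 2 entries of the annotated type IG_LV_gene, in 16 families. Those 2 entries lie on the plus strand over the pseudogenes Ighv5-8 and Ighv1-13 and share their symbols.

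A B cell builds the variable part of its heavy chain by joining 1 V gene to a diversity (D) and a joining (J) gene, and the joined segment is transcribed together with a constant region that sets the antibody class. Each B cell normally makes a single heavy chain, so the mixture of V genes in spleen RNA reflects which clones are present and how much heavy chain RNA each makes. Plasma cells, the antibody-secreting descendants of B cells, hold far more of this RNA per cell than resting B cells do. In bulk tissue, fewer cells using a V gene and less RNA per cell cannot be told apart.

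Most of the coding sequence of a member lies in its V exon, which encodes the framework and the first complementarity-determining loops of the antigen-binding site. The last coding bases of the highest member in the 5 families of largest share, with Ighv1-34 beside Ighv1-55, are shown because this is the end that is cut and joined. Each is the final 45 coding bases on the minus strand, 5′ to 3′, from the GENCODE M21 transcripts, and capitals mark the last in-frame cysteine codon, the conserved residue at which the antigen-contacting junction begins.
Ighv1-55: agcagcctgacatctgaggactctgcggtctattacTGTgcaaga
Ighv1-34: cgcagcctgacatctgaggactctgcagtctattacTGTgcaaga
Ighv2-2: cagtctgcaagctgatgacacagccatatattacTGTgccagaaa
Ighv3-6: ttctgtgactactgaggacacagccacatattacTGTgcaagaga
Ighv5-17: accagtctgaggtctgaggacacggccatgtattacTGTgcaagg
Ighv8-8: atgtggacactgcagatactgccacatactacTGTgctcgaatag

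A second set shows how similar members of 1 family can be, since reads of such genes are divided by estimation. Ighv1-72 had the highest TPM of any member in library 1, Ighv1-62-3 is its nearest relative, and Ighv1-53 was among the 4 highest in both libraries. The last 294 bases of each V exon (exon 2 of 2, coding) are given on the minus strand from chr12:115757984-115758277, chr12:115460999-115461292 and chr12:115158403-115158696. Capitals mark bases that differ from Ighv1-72.
Ighv1-72: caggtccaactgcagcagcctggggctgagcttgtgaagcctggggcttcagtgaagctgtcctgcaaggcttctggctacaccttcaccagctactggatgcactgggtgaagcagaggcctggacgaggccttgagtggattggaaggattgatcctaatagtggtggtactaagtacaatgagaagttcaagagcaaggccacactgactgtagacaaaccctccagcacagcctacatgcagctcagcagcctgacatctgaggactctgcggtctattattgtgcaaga
Ighv1-62-3: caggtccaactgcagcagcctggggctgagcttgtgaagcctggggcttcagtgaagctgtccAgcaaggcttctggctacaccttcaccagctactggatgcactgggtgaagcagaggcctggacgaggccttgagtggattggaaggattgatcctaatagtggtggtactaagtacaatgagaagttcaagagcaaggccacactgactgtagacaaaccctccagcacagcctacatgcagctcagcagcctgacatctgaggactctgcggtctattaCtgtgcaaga
Ighv1-53: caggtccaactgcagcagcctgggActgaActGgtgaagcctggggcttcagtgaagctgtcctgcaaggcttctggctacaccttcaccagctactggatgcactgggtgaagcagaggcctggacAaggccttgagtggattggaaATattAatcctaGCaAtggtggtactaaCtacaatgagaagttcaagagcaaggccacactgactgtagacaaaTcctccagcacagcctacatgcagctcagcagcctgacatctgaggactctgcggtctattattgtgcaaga

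Counted from 1 at the 5′ end of this stretch, with the Ighv1-72 base first, Ighv1-62-3 differs by T64A and T285C. T64A lies in codon 22 and replaces the cysteine codon TGC of Ighv1-72 by AGC, which encodes serine. As background, that cysteine is the first of the pair that forms the disulphide bond of the V domain. Ighv1-53 differs at 12 positions (95.9% identity), among them G149A, G150T and G154A in codons 50 and 52.

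The markers of the tissue and of its B cells were present. All 4 spleen transcription factor genes and all 10 B cell genes listed were at 1 TPM or more in both libraries, and none of those listed was at 0. TPM, a transcript abundance unit, divides a gene's reads by its effective length and scales the library to a fixed total. Summed TPM of 5 erythroid genes was 194306 in library 1 and 304494 in library 2, that of 11 exocrine pancreas genes was 92694 and 75243, and all of these genes were above 0 in both. These sums enter the TPM total of a library and cancel in shares within Ighv. Their part in differences of Ighv counts was not tested.

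Ighv genes together held 3225 TPM in library 1 and 2607 TPM in library 2, or 0.295% ± 0.0430 of gene TPM (SD, n = 2). The summed expected counts, the deposited estimates of reads per gene, were 23781 and 23738, or 0.0479% and 0.0462% of gene counts. The libraries therefore stood apart by 0.31 on the log2 scale in summed TPM but by 0.02 in scaled counts (library 1 over library 2). The median effective length of members was 138 bases in library 1 and 154 bases in library 2, against a median annotated length of 351 bases, a ratio between libraries of 0.898. For other genes at 1 TPM or more that ratio was 0.992. Tests between libraries are given on counts scaled by library, which were not corrected for effective length, and levels are given on TPM. Family and locus shares are given on both.

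The constant region genes give a second measure of heavy chain RNA. The 8 of them summed to 7909 TPM in library 1 and 6304 TPM in library 2, so Ighv TPM came to 40.8% and 41.3% of constant region TPM. In counts the proportion was 5.03% and 5.54%. A read that crosses from a V gene into a joined segment matches no single annotated V gene, and the sources used here do not say how such reads were handled. The 4 J genes, at most 54 bases long, and the 20 D genes, at most 29 bases long, had an effective length of 0 and no counts in either library, so their usage could not be measured.

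Many members were detectable in spleen. In all, 90 of 175 members (51.4%) reached 1 TPM in both libraries, against 28.8% of all genes, and 61 members had 0 counts in both. Of the 113 V genes, 88 reached 1 TPM in both, 7 had counts that summed to under 10, and 11 had none. Those 11 were Ighv5-12-4, Ighv7-2, Ighv16-1, Ighv6-5, Ighv6-7, Ighv1-16, Ighv1-24, Ighv1-62-1, Ighv8-9, Ighv1-71 and Ighv8-13. The floor behind a count of 0 was taken as 3 counts, and at the median effective length that corresponds to 0.407 TPM in library 1, against 0.329 TPM in library 2.

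Pseudogenes contributed almost nothing. The 60 of them held 52 counts in library 1 and 44 in library 2, or 0.231% and 0.206% of Ighv TPM, and 48 had no count in either library. The 3 highest were Ighv3-2 with 3.21 TPM in library 1 and 2.00 in library 2, Ighv1-2 with 1.64 and 1.36 TPM, and Ighv1-38 with 0.76 and 1.00 TPM. None of these 3 differed between the libraries on counts (adjusted p of 0.53, 1.0 and 0.68 by the exact binomial test). Ighv5-1, a pseudogene and the member nearest the D genes, had 0 counts in both.

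Among V families, Ighv1 dominated. Its 86 members, 49.1% of all, took 59.7% of Ighv TPM in library 1 and 59.6% in library 2, and 58.8% and 59.2% of Ighv counts. The 3 largest families, Ighv1, Ighv2 and Ighv3 in both libraries, summed to 82.6% of Ighv TPM in library 1 and 78.2% in library 2. Ighv5, which has 22 members, came next, and Ighv16, with a single member, was the only family with no count at all.

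Ighv2 and Ighv5, whose genes are interspersed at the D-proximal end of the locus, differed between the libraries in opposite directions. Ighv2 took 16.9% of Ighv TPM in library 1 and 11.3% in library 2, and 17.0% (95% exact Clopper-Pearson interval 16.5 to 17.5) and 11.9% (11.5 to 12.3) of Ighv counts. Ighv5 took 4.34% and 6.73% of TPM, and 5.21% (4.94 to 5.50) and 7.71% (7.38 to 8.06) of counts. Neither pair of intervals overlapped. The same was true of Ighv3, Ighv4, Ighv6, Ighv8, Ighv9 and Ighv14, so it was not particular to Ighv2 and Ighv5. The intervals of the remaining families overlapped. Such intervals cover counting error only, and with 2 libraries no test over samples can reach 0.05.

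Shares of the middle-sized families differed less in absolute terms. Ighv3 held 5.98% of Ighv TPM in library 1 and 7.21% in library 2 (5.38% and 6.41% of counts), Ighv8 held 3.58% and 4.87% (3.11% and 4.16% of counts), and Ighv14 held 2.81% and 3.82% (2.94% and 3.85% of counts). Ighv4, in effect the single gene Ighv4-1, held 1.73% and 0.894% of TPM, and 2.27% and 1.12% of counts. Ighv11 stood higher on counts than on TPM, with 1.39% and 1.19% of counts against 0.857% and 0.782% of TPM. Ighv7 held 1.69% and 1.48% of TPM (1.68% and 1.46% of counts), Ighv9 held 1.20% and 1.60% (1.08% and 1.42% of counts), and Ighv6 held 0.689% and 0.997% (0.643% and 0.918% of counts). The smallest families with counts, Ighv10, Ighv12, Ighv13 and Ighv15, lay between 0.0456% and 0.290% of TPM in library 1 and between 0.0138% and 0.401% in library 2. On counts they lay between 0.0294% and 0.294% in library 1 and between 0.0126% and 0.392% in library 2.

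**Figure D1:**
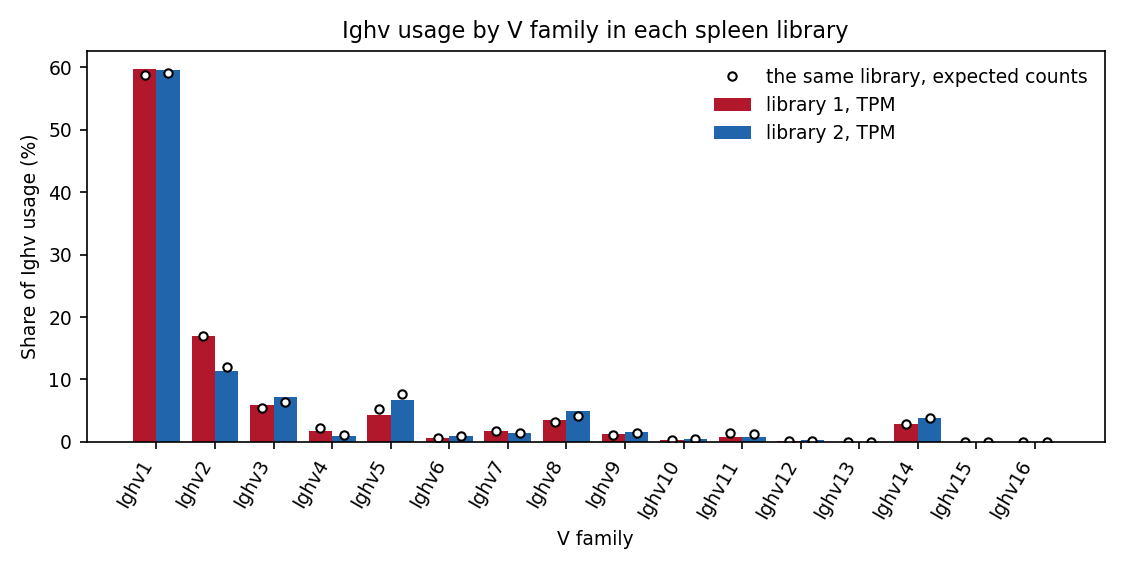
Share of Ighv usage (%) by V family: bars give the share of TPM in library 1 (left, red) and library 2 (right, blue), and circles the share of expected counts of the same library. Ighv1 stood at 59.7% and 59.6% of TPM, while Ighv2 was higher in library 1 (16.9% against 11.3%) and Ighv5 lower (4.34% against 6.73%).

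Usage was spread over many genes but unevenly. The highest member took 10.4% of Ighv TPM in library 1 and 8.06% in library 2, the 5 highest 32.9% and 29.0%, and the 20 highest 66.4% and 63.4%. It took 12 members in library 1 and 13 in library 2 to reach 50% of Ighv TPM, and 45 and 48 to reach 90%. The effective number of genes, the exponential of the Shannon entropy, was 45.9 in library 1 and 50.9 in library 2 (48.4 ± 3.55, SD, n = 2), and on counts it was 43.9 and 47.4. On this measure usage was somewhat more concentrated in library 1.

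**Figure D2:**
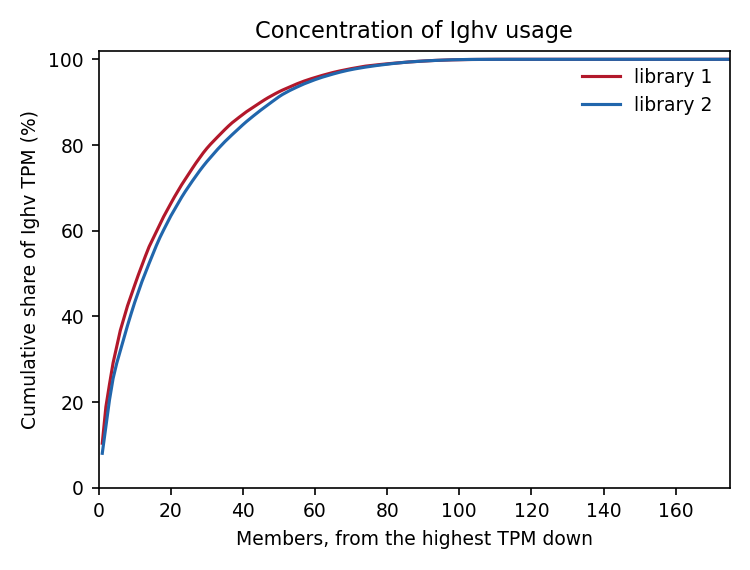
Cumulative share of Ighv TPM (%) against the number of members, ordered from the highest down in each library. Library 1 (red) runs above library 2 (blue) at the top of the order, with 32.9% against 29.0% in the 5 highest members, and 45 and 48 members reach 90%.

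The leading genes were largely but not wholly shared. Of the 10 highest members of each library 7 were common to both, and of the 20 highest 15 were common. Ighv1-55, the member of highest mean level, had 273 TPM in library 1 and 210 TPM in library 2, the highest rank in library 2 and the next to highest in library 1. It held 8.46% and 8.06% of Ighv TPM and 11.2% and 10.2% of Ighv counts, and its counts of 2655 and 2412 gave a log2 ratio of 0.16 (adjusted p = 0.00036). Ighv1-53 had 170 TPM in library 1 and 130 TPM in library 2 and did not pass the test on counts (log2 ratio 0.12, adjusted p = 0.10).

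Ighv3-6 accounted for most of its family, with 83.6% of Ighv3 TPM in library 1 and 87.0% in library 2. Its TPM was 161 and 164, while its counts of 1063 and 1318 were lower in library 1 (log2 ratio -0.29, adjusted p = 4.0e-06). The remaining members among the 12 highest were 3 Ighv2 genes (Ighv2-2, Ighv2-9-1 and Ighv2-9), Ighv5-17, and the Ighv1 genes Ighv1-72, Ighv1-34, Ighv1-64, Ighv1-7 and Ighv1-50. Of these, Ighv1-64, with 93.7 TPM in library 1 and 76.2 TPM in library 2, and Ighv1-7, with 79.4 and 71.8 TPM, did not pass the test (adjusted p of 0.79 and 0.35).

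The libraries were compared gene by gene with an exact binomial test of rounded expected counts, adjusted over the 17547 genes with 10 or more counts in total. It asks whether these libraries differ beyond counting error and says nothing of a condition. Of the 175 members 98 could be tested. In library 1, 18 of the 98 members (18.4%) were higher, against 26.6% of all tested genes, and 22 (22.4%) were lower, against 24.1%. Neither share was above that of all tested genes. Passing depends on read depth, which was not matched here, so the shares do not tell whether differences were rarer among members.

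Large differences took a larger share. Past 2-fold, a limit set on the log2 ratio with a prior count of 2, 6 members (6.12%) were higher in library 1, against 2.21% of all tested genes, and 6 (6.12%) were lower, against 3.52%. The median absolute log2 ratio was 0.39 over the 77 members with 50 or more counts in total and 0.22 over all genes with 50 or more. That limit is a minimum, so depth was not matched between members and all genes here either. The median signed log2 ratio was -0.09 for tested members and -0.00499 for all tested genes. That sign depends on the unit. Over tested members the log2 ratio of TPM + 1 minus that of counts had a median of 0.25. Of these members 16 were lower in library 1 on counts but higher there in TPM, and 0 of them passed the test. All these values describe the list, some beside all genes, without a test of the list.

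Similarity of the libraries was lower among the abundant members. Across members, Pearson's r of log2(TPM + 1) was 0.98 over all 175, 0.93 over the 97 at 1 TPM or more in either library, and 0.77 over the 45 at 20 TPM or more in either. Over 13221 genes at 1 TPM or more it was 0.98. All points share the same pair of libraries, and genes are not independent replicates. The narrower range of levels in the smaller sets also enters r.

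**Figure D3:**
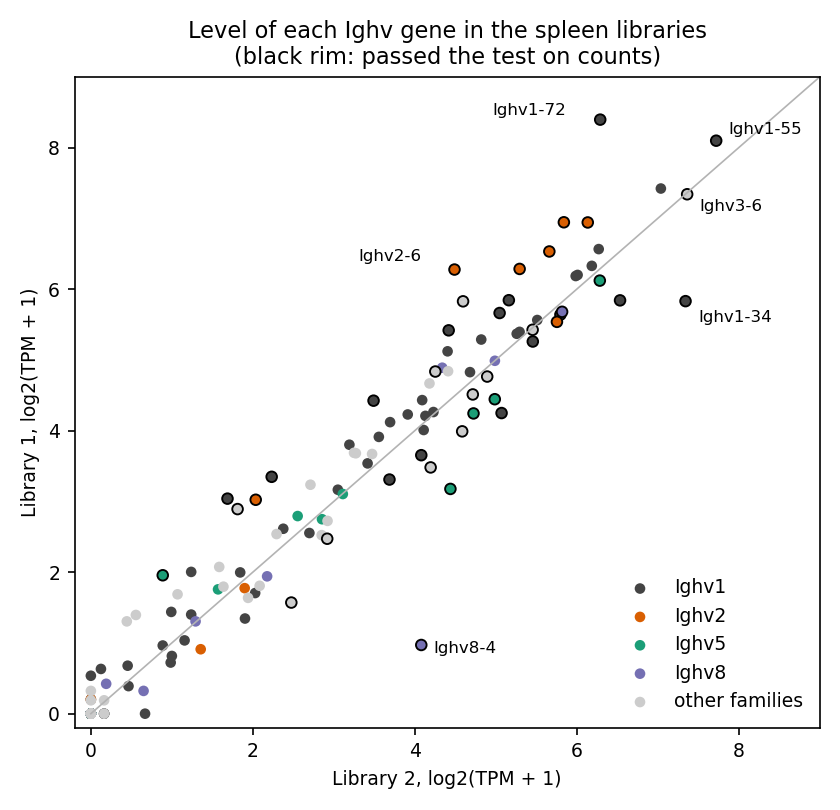
Level of each of the 175 members as log2(TPM + 1), library 1 on the vertical axis against library 2 on the horizontal axis, coloured by family, with the line of equal values; a black rim marks members that passed the binomial test on counts. Ighv1-72 (336 TPM in library 1, 77.2 TPM in library 2) lies above the line, and Ighv1-34 (55.9 and 161 TPM) and Ighv8-4 (0.96 and 15.9 TPM) lie below it.

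Ighv1-72, known for its use in antibodies that C57BL/6 mice make against the nitrophenyl hapten, showed the highest ratio in favour of library 1 among members with 50 or more counts in a library. It had 336 TPM in library 1 and 77.2 TPM in library 2, from 2232 and 626 counts, a 3.61-fold difference (95% counting interval 3.30 to 3.95, adjusted p = 1.5e-212). Its rank by TPM was 1 in library 1 and 6 in library 2. The deposited posterior SD of its count, which reflects the division of reads among similar genes, was 0.71 and 1.10 counts. Of the windows of read length in its transcript 29.6% occur in no other member, and Ighv1-62-3, which differs from it at 3 bases over the V exon, was given 6.31 and 6.87 counts.

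Ighv1-34 went the other way, with 55.9 TPM in library 1 and 161 TPM in library 2. Its 471 and 1623 counts gave a log2 ratio of -1.76 (adjusted p = 1.8e-142), and its rank by TPM was 17 in library 1 and 3 in library 2. Its deposited posterior SD was 0 in both libraries. Ighv1-50, with 56.3 and 91.7 TPM, was lower in library 1 as well (log2 ratio -0.94, adjusted p = 2.2e-31).

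The member with the most extreme ratio was Ighv8-4, which had 5 counts (0.96 TPM) in library 1 and 117 counts (15.9 TPM) in library 2. Its count in library 1 was 0.0433 times that in library 2 (95% counting interval 0.0138 to 0.104, adjusted p = 1.4e-27). Its nearest relative shares 84.6% of the V exon and every read-length window of its transcript is unique among members. The other members past 2-fold lower in library 1 were Ighv9-4, Ighv5-9-1, Ighv1-61 and Ighv6-3, with log2 ratios of -1.36, -1.33, -1.11 and -1.01. Ighv1-61 is 98.7% identical to Ighv1-52 over the V exon and carried a posterior SD of 4.48 counts on 120 in library 1 and 2.41 on 265 in library 2.

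On the other side, the members past 2-fold higher in library 1 were Ighv1-72, Ighv2-6, Ighv1-63, Ighv5-2, Ighv3-8 and Ighv4-1. Ighv2-6 stood at 76.5 TPM in library 1, against 21.5 TPM in library 2 (505 and 173 counts, log2 ratio 1.55, adjusted p = 2.1e-38). Ighv4-1 had 55.8 and 23.2 TPM (540 and 265 counts, log2 ratio 1.04, adjusted p = 2.5e-22). Ighv1-36 fell just under the limit with the prior count (log2 ratio 1.00) and just over it without one (2.06-fold). Ighv3-8, Ighv1-63 and Ighv1-36 rested on 61 or fewer counts in each library, and Ighv5-2 on only 19 in library 1 and 7 in library 2.

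Within Ighv2 the difference was shared by most of the abundant members. Of 9 tested, 6 were higher in library 1 (26.6% of all tested genes were) and 1 was lower, with a family median log2 ratio of 0.62. Ighv2-2 had 122 TPM in library 1 and 69.3 TPM in library 2, Ighv2-9-1 had 122 and 56.3 TPM, Ighv2-9 had 91.6 and 49.6 TPM, and Ighv2-3 had 77.0 and 38.2 TPM. The exception was Ighv2-5, with 45.5 and 53.0 TPM (log2 ratio -0.42, adjusted p = 4.8e-07).

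Members of Ighv5 and Ighv14 that passed the test were mostly lower in library 1. In Ighv5, 4 of 9 tested members were lower in library 1 (24.1% of all tested genes were) and 1 was higher. Ighv5-4 had 20.8 TPM in library 1 and 30.7 TPM in library 2, Ighv5-6 had 17.9 and 25.4 TPM, and Ighv5-17 had 68.6 and 76.9 TPM. In Ighv14, 3 of 4 tested members were lower in library 1, and Ighv14-4 had the widest gap at 99 and 185 counts (log2 ratio -0.87). In Ighv1, 8 of 47 tested members were higher in library 1 (26.6% of all tested genes were) and 7 were lower, around a median of -0.07. Without Ighv1-72, left out after its ratio had been seen, Ighv1 held 55.0% of the remaining Ighv TPM in library 1 and 58.4% in library 2.

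**Figure D4:**
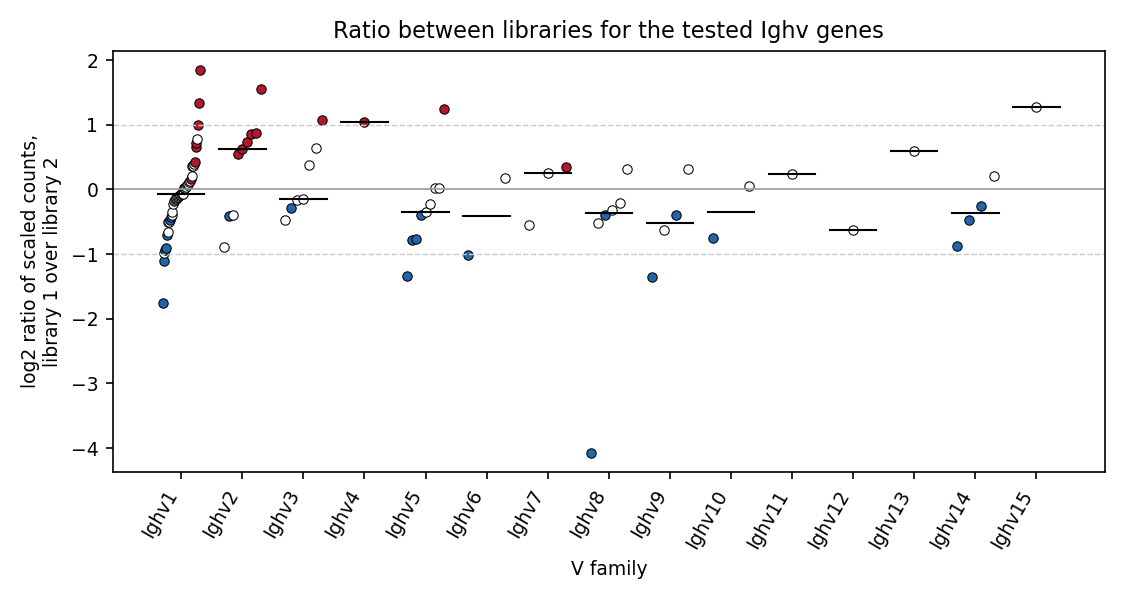
Log2 ratio of TMM-scaled counts, library 1 over library 2, for the 98 tested members by V family; filled points passed the test (red higher, blue lower in library 1), open points did not, bars are family medians and dashed lines mark 2-fold. The Ighv2 median is 0.62 and the Ighv5 median -0.35, and Ighv8-4 lies lowest at -4.07.

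Members with a known specialised use were mostly moderate or low. Ighv11-2 and Ighv12-3, genes that peritoneal B-1 cells use for antibodies to phosphatidylcholine, stood at 27.6 and 4.75 TPM in library 1 and at 20.3 and 6.21 TPM in library 2. Neither passed the test (adjusted p of 0.073 and 0.087). Ighv7-1, the V gene of the classical antibodies to phosphorylcholine, was at 27.6 TPM in library 1, against 18.1 TPM in library 2 (log2 ratio 0.35, adjusted p = 0.046). Ighv5-2, a D-proximal gene that precursor B cells rearrange early and often, had 19 and 7 counts (2.88 and 0.85 TPM, adjusted p = 0.038), far below its neighbour Ighv2-2.

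Most genes of precursor B cells and of recombination were low, while the octamer factor and receptor partner genes listed were detected. Rag1 and Rag2, which encode the recombinase, were at or below 0.11 TPM in both libraries. Of the 7 genes listed only 4 had enough counts to be tested. Vpreb3 alone passed (263 and 160 TPM), and it was higher in library 1, as were 26.6% of all tested genes. Of the 3 genes listed as octamer factors, named for the octamer element of V promoters, Pou2f2 and Pou2af1 were higher in library 1 (log2 ratios 0.35 and 0.48). Pou2f1 did not pass. The surface receptor genes split, with Cd79a higher in library 1 and Cd79b lower (log2 ratios 0.26 and -0.07).

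Class and cell-type genes varied between the libraries alongside the V genes. Their numbers are read beside the 26.6% of all tested genes that were higher in library 1 and the 24.1% that were lower. The 4 IgG constant genes summed to 1299 TPM in library 1 and 345 TPM in library 2, or 16.4% and 5.47% of constant region TPM, while Igha was lower in library 1 (526 and 764 TPM, log2 ratio -0.67). Of 9 plasma cell genes 5 were higher in library 1 and 1 was lower, with summed TPM of 945 and 776 and none at 0. Of 10 B cell genes 4 were higher and 6 lower (3007 and 2602 TPM). The test is on counts, so its direction can differ from that of a TPM sum. Median log2 ratios on counts were 0.09 (plasma cell), -0.10 (B cell), 0.13 (germinal centre), -0.05 (B-1 cell) and -0.24 (T cell). Of 6 germinal centre genes 1 was higher and 1 lower (36.5 and 31.2 TPM), of 5 B-1 cell genes 2 were higher and 1 lower (105 and 96.4 TPM), and of 6 T cell genes none was higher and 5 were lower (320 and 317 TPM), with none of any list at 0. The part of these in the Ighv differences was not tested, and the files do not link a V gene to a class.

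Usage was distributed over the whole locus. Ordered from the D-proximal end over 2427 kb and divided into 5 parts of 35 members, the parts held 22.1%, 13.9%, 12.8%, 16.3% and 34.9% of Ighv TPM in library 1, and 18.7%, 16.0%, 13.0%, 23.4% and 28.9% in library 2. On counts they held 23.1%, 14.4%, 13.0%, 15.7% and 33.8% in library 1, and 20.3%, 15.6%, 13.1%, 23.1% and 27.8% in library 2. The part farthest from the D genes, made of Ighv1 and Ighv8 genes, held the largest share in both libraries and had the fewest pseudogenes (5 of 35). The first part holds 32 of its 35 members from Ighv2 and Ighv5, and the last 3 parts hold 85 of the 86 Ighv1 genes, so position and family largely coincide.

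These shares moved when a single gene was left out. Without Ighv1-72 the last part held 27.4% of the remaining Ighv TPM in library 1 and 26.7% in library 2, the first part 24.7% and 19.3%, and the fourth part 18.2% and 24.1%. The gap between the libraries was thus smaller in the last part and wider in the first. Without Ighv1-34 the fourth part held 14.8% and 18.4%. Both genes were picked after their ratios had been seen. In the second part, which mixes 14 families, 2 of 22 tested members were higher in library 1 (26.6% of all tested genes were) and 7 were lower (24.1%).

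**Figure D5:**
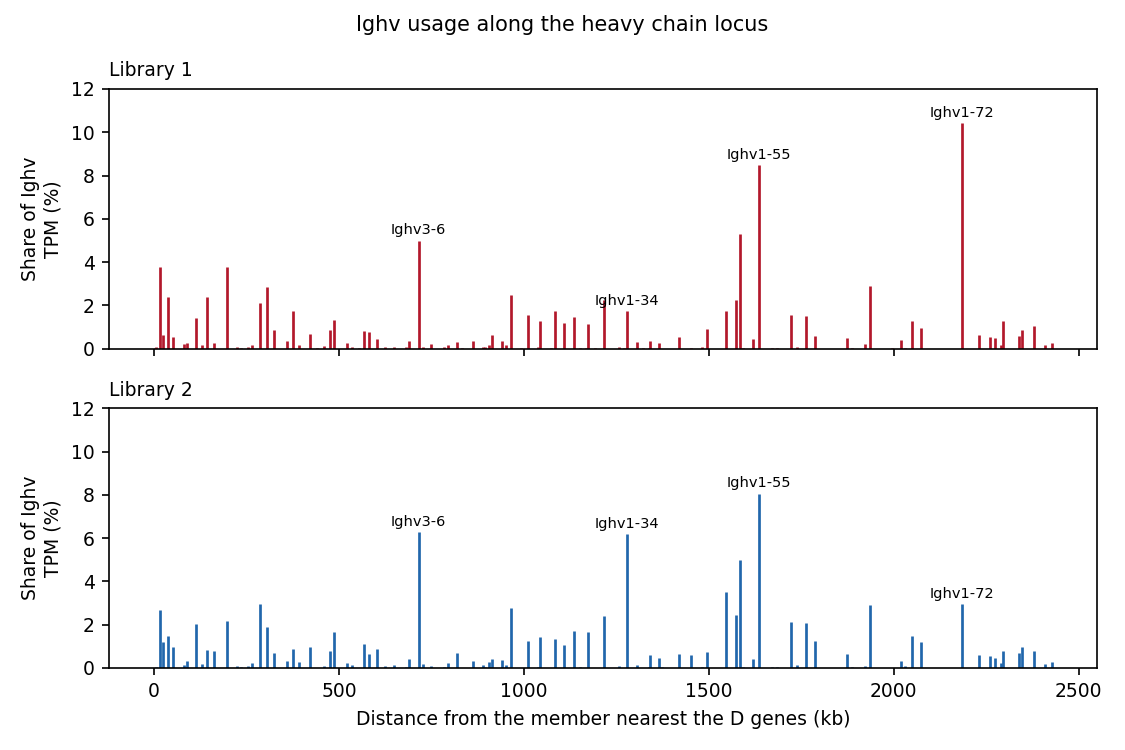
Share of Ighv TPM (%) of each member against its distance in kb from the member nearest the D genes, in library 1 (top, red) and library 2 (bottom, blue). Ighv1-55 stands out in both (8.46% and 8.06%), Ighv1-72 in library 1 (10.4%, against 2.96% in library 2) and Ighv1-34 in library 2 (1.73% in library 1, against 6.19%).

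Sequence similarity limits some assignments. The nearest other member was a median 94.1% identical over the V exon, and 29 members, with 34.6% of Ighv TPM in library 1 and 30.6% in library 2, had a partner at 97% or more. Ighv1-62-2 and Ighv1-71 have identical V exons. All reads were assigned to Ighv1-62-2 (120 counts in library 1 and 155 in library 2) and none to Ighv1-71, so their values are best read as a sum. Of the 90 members in library 1 and 91 in library 2 with 10 or more posterior mean counts, 76 and 81 had a deposited posterior SD of 0. The other 14 and 10, with an SD above 0, held 38.9% of Ighv TPM in library 1 and 19.8% in library 2.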

How the data were processed

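The deposited gene tables hold 1 library each, on mm10 with GENCODE annotation M4 per the deposited notes, computed from alignments to the transcriptome. The sources used here name neither the aligner nor the quantifier, and give no strand setting. The authors' expected count is an estimated read number per gene, not normalized, and need not be whole. The authors' TPM and posterior mean TPM are scaled over all entries, spike-ins included. The deposited TPM credibility bounds and posterior SD of counts were read as a signal, and effective lengths as deposited. Spike-ins and other entries (0.670% and 1.24% of counts in libraries 1 and 2) were left out of totals and tests. Symbols came from GENCODE M21 on the same assembly (98.0% of identifiers matched), and sequences from its transcripts.

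Expected counts were rounded and scaled by TMM in edgeR 4.0.16 (R 4.3.3, factors 1.01 and 0.9896). An exact two-sided binomial test per gene, with Benjamini-Hochberg adjustment at 0.05, compared the libraries. Log2 ratios use a prior count of 2, folds and intervals use none. DESeq2 1.42.0 size factors, library totals, other count minimums and a prior of 0.5 were alternatives. Python 3.11.15 with pandas 2.3.3, numpy 2.4.6, scipy 1.17.1, edlib 1.3.9.post1 and matplotlib 3.10.9 did the rest. The intervals reflect counting error alone: PCR reads lacking molecular identifiers are no independent molecules. Nothing in the labels says that the libraries came from different animals, and both carry the same donor record, so the spread may be technical. The members, the gene lists and the naming rule (12 highest members, the highest of each family, 5 largest called ratios each way, 5 genes of known use, 3 pseudogenes, the ends of the locus) were chosen with earlier results of these data known. Families are the number after Ighv in the symbol, and near-identical partners are members at 97% or more of V exon bases. The planned list of mutation and class switch genes is not reported here.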

Additional observations from a re-analysis of the deposited data

How the results depend on the processing

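Counts of members that differed between the libraries kept within 1.5 times under all 8 alternatives (28 to 43 in total, against 40). None of the 8 corrected counts for effective length. Of 260 recomputed ratios for 34 named members, 5 changed their side of the threshold, in 4 members: Ighv1-53 and Ighv11-2 passed with library totals, Ighv5-2 did not pass when scaled to Ighv counts, and Ighv7-1 did not pass there or with no minimum of counts. Among the main values, those that moved by more than the SD between libraries were these. With expected counts in place of TPM, the Ighv share of the library was 0.0470% against 0.295%, the Ighv1 share 59.0% against 59.7%, and the share of Ighv1-55 10.7% against 8.26%. With posterior mean TPM, the Ighv1 share was 59.5% and the pseudogene share 0.570% against 0.219%. Without the highest member of each library, the Ighv1 share was 55.5% and that of the locus part farthest from the D genes 25.0% against 31.9%, and without Ighv1-72 (chosen after seeing the data) these were 56.7% and 27.0%. The inverse Simpson index gave an effective number of 31.2 against 48.4. Of 60 recomputed family shares 6 moved by more than the SD, and of 68 recomputed member shares 10 did, such as Ighv11 and Ighv11-2 on counts (both 1.29%, against 0.820% and 0.817%). The effective length of Ighv11-2, by which TPM divides, was 248 bases in library 1 and 264 bases in library 2. The median of members was 138 and 154 bases. Causes of the moves were not tested. Leaving out either library gives the other's value, and no comparison between them remains. No paired analysis was possible because the libraries form a single group.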
